A study of Homo sapiens with 12 samples.

Results

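The genes described here code for mRNA decay factors other than the CCR4-NOT complex itself. They were chosen by symbol, as a list of 49 genes covering the decapping, LSM, PAN2-PAN3, exosome, SKI, nonsense-mediated decay, poly(A)-binding and AU-rich element binding factors. Of these, 47 had a row among the 20042 named genes with a value on every array, and UPF3A and UPF3B were not analysed here. Where a gene had several spots, its brightest spot was used.

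The measurements came from 12 Agilent arrays of HEK-293T cells, a human embryonic kidney line that carries the SV40 large T antigen. All the lines carried a stably integrated pINDUCER plasmid, from which doxycycline (Dox) induces a miR30-based shRNA. The groups were CNOT1 +Dox and CNOT1 -Dox (1 array each), CNOT2 +Dox and CNOT2 -Dox (2 arrays each), CNOT3 +Dox and CNOT3 -Dox (1 array each), and Luci +Dox and Luci -Dox (2 arrays each), where the Luci hairpin is the control against luciferase. The cells were described as stable clones, so a difference between lines cannot be told apart from a difference between clones. The series' design mentions technical replicates, and the paper describes the repeat as both biological and technical. The p-values therefore measure the spread between arrays, which may be technical. The title of the second Luci -Dox array gives no Dox while another of its labels gives Dox, and the title was followed. Values are log2 intensities. The arrays carrying replicate number 1 and those carrying number 2 are called the first and second experiment, and the CNOT1 and CNOT3 arrays were set with the first.

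A cytoplasmic mRNA usually loses its poly(A) tail first, through PAN2-PAN3 and then CCR4-NOT. The deadenylated mRNA is then decapped by DCP2 with the help of activators and the LSM1-7 ring and digested from the 5′ end by XRN1, or it is digested from the 3′ end by the exosome, which the SKI complex feeds with RNA in the cytoplasm. Nonsense-mediated decay factors mark transcripts with premature stop codons, and AU-rich element binding proteins stabilise or destabilise mRNAs that carry these elements.

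The knocked-down subunits were lower on the arrays with Dox. CNOT1 was at 5.07 with Dox and 7.23 without in the CNOT1 line, CNOT2 at 8.96 and 8.38 with Dox against 9.86 and 9.72 without in the CNOT2 line, and CNOT3 at 6.80 with Dox and 8.96 without in the CNOT3 line. This last value without Dox was itself below the CNOT3 levels in the other lines, which ran from 9.76 to 10.68. Of the HEK-293T markers, VIM, KRT18 and CDH2 lay between 9.62 and 14.70 on every array, KRT8 between 5.71 and 8.28 and EPCAM between 2.38 and 7.12. Of the blood markers, PTPRC and CD3E stayed between 2.13 and 4.10, and CD14 was at 4.88 and 5.48 in the CNOT1 line, against 2.78 to 3.94 in the Luci line. The neurofilament gene NEFM was at 8.63 to 10.41 on the 4 CNOT1 and CNOT3 arrays and at 14.45 to 14.93 on the 8 CNOT2 and Luci arrays. The part of such differences between the lines in the results on decay factors was not tested.

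Mean levels lay from 8 to 11 for 24 of the 47 decay factors and above 11 for another 12. Their median level was 10.0, against 5.75 for all genes, and their median standard deviation between replicate arrays was 0.31, against 0.43 for all genes. The lowest was DIS3, a nuclease of the exosome, with a mean of 3.68, close to the median of all spots at 3.34. Values of DIS3 are therefore close to background, and genes with mean levels from 3.5 to 5 had the widest replicate spread of all the level classes, with a median standard deviation of 0.64. The shares of all genes set beside the factors below include many dimmer genes with a wider spread. Of the 10021 genes at or above the 50th percentile of mean level, 170 were more than 2-fold higher and 59 lower with Dox in the CNOT2 line. In the CNOT1 line these counts were 92 and 53, in the CNOT3 line 157 and 148 and in the Luci line 57 and 21.

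The regions upstream of 3 genes to which the results below return are shown, DCP2 because its level was lower with Dox in every line, WDR61 (now SKIC8) and UPF1 because their arrays in the CNOT3 line did not overlap those in the Luci line. Each is the 250 bases before the RefSeq start on build GRCh38.p14, at chr5:112976548-112976797 (plus strand), chr15:78299610-78299859 (minus strand) and chr19:18831709-18831958 (plus strand), in that order. Capitals mark exact matches on either strand to the letters of the CCAAT box, the GC box, an ETS-type motif and the TATA box, which are spelled out after the sequences, and matches that overlap run together.
DCP2: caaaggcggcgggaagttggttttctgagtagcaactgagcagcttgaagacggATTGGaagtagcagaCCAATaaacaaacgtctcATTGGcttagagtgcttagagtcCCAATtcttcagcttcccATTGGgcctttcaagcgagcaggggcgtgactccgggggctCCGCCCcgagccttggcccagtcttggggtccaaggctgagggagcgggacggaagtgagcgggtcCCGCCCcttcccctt
WDR61: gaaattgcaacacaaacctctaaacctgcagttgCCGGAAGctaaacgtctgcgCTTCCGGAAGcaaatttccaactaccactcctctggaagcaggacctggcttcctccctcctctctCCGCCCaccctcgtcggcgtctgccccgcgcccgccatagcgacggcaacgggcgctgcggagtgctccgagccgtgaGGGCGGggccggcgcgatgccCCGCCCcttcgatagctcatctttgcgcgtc
UPF1: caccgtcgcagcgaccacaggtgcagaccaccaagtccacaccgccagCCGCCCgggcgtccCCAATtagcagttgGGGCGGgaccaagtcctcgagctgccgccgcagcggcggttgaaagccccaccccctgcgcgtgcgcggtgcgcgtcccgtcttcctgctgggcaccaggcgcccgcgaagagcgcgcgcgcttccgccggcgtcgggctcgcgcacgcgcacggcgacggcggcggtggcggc

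Of the 47 genes, 39 matched the RefSeq start table by symbol. The GC box letters GGGCGG were found upstream of 31 of them (79.5%), against 42.6% of all 35116 start regions, which include those of non-coding genes. The ETS-type letters CCGGAAG were found upstream of 7 (17.9%), against 8.52% of all. The CCAAT box letters, CCAAT, were found upstream of 10 (25.6%), against 32%. The TATA box letters TATAAA were found upstream of 2 (5.13%), against 10.7%. These matches describe letters in the window and were not tested.

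To ask whether the other decay machinery changed when a CCR4-NOT subunit was knocked down, each line was first compared with itself. In the CNOT2 line, DCP2, the catalytic subunit of the decapping enzyme, had values of 8.09 and 7.08 with Dox, against 9.03 and 8.24 without. The arrays with Dox were the lower pair, and the difference was -1.05 on the log2 scale (SE 0.53, 95% interval -2.31 to 0.21, 2 arrays each). It did not pass the threshold, with a limma Benjamini-Hochberg adjusted p of 1, and it ranged from -1.56 to -0.55 when single arrays were left out. DCP2 was lower in the second experiment in all 4 groups, with differences of -1.01 to -0.75. With the experiment as a block, the SE of the Dox difference was 0.18 and the limma adjusted p 0.39. As RNA was taken from whole cultures, fewer cells making an mRNA and less of it per cell cannot be told apart. Of the 47 factors only DCP2 was more than 2-fold different, where 5.72% of all genes were.

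No decay factor passed an adjusted p of 0.05 in this comparison by limma, and no gene of the whole table did (0% called). None of the factors had an unadjusted p under 0.05 either, against 602 of all 15031 genes. Of the 10021 genes at or above the 50th percentile of mean level, 236 did. With the experiment as a block, with or without an intensity trend, no factor was called. The arrays with Dox lay wholly above those without for 4 factors, against 15.5% of all genes, and wholly below for 10, against 14.3%. The median difference over the 47 was -0.10, and 0.01 over all genes.

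The factor next in size was DIS3, close to background, at 2.62 and 2.94 with Dox and 4.27 and 3.21 without in the CNOT2 line, a difference of -0.96 (SE 0.58, adjusted p = 1 by limma). Its difference was -1.65 in the first experiment and -0.27 in the second. PAN3, the RNA-binding partner of the PAN2 deadenylase, had values of 6.0 and 5.60 with Dox and 6.56 and 6.52 without in the CNOT2 line, a difference of -0.74 (SE 0.31, adjusted p = 1 by limma). DCP1B, a decapping cofactor, was at 10.10 and 9.81 with Dox and at 9.63 and 9.25 without, a difference of 0.52 (SE 0.31, adjusted p = 1 by limma). The helicase SKIV2L of the SKI complex had a difference of 0.48, which ranged from 0.09 to 0.87 when single arrays were left out, and its arrays overlapped. The exosome core was close to even, with 5 of 9 subunits higher and 4 lower and a median of 0.04. Of the 7 subunits of the LSM1-7 ring, 2 were higher and 5 lower, with a median of -0.33, which was -0.05 in the first experiment and -0.45 in the second. In the Luci line all 7 were lower with Dox on the mean of both experiments, with a median of -0.165. That median was 0.03 in the first experiment and -0.33 in the second.

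In the CNOT1 line, which had 1 array with Dox and 1 without, no factor was more than 2-fold different, against 8.54% of all genes. No factor and no gene passed the adjusted threshold (0% called), where the spread was taken from the other groups' replicates. PAN3 had the lowest difference, at 6.32 with Dox and 7.17 without (-0.85), and the exosome subunit EXOSC6 the highest, at 7.01 with Dox and 6.58 without (0.43). In the CNOT3 line DIS3 was at 3.00 with Dox and 5.04 without, the only factor more than 2-fold different, against 10% of all genes. Its adjusted p was 1 by limma, although its unadjusted p was under 0.05 (0% of genes called), and its mean level lies in the class with the widest replicate spread. Leaving it aside, the lowest difference was that of DCP2, -0.72, and the highest that of EXOSC6, 0.66.

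In the Luci line, which tells what Dox and a control hairpin do, no factor was more than 2-fold different (4.33% of all genes), and none passed the adjusted threshold (0% called). DCP2 had values of 8.98 and 8.09 with Dox and of 9.37 and 8.62 without, a difference of -0.46 (SE 0.53, adjusted p = 1.00 by limma). The difference in SKIV2L was 0.62, with 6.78 and 7.21 with Dox against 6.12 and 6.63 without. Thus DCP2 was lower and SKIV2L higher with Dox in both Luci pairs, as in the CNOT pairs. LSM4 and UPF1 were also lower with Dox in every CNOT pair and in both Luci pairs. Their Luci differences were -0.09 and -0.36 for LSM4 and -0.12 and -0.01 for UPF1. How many of all genes had the same sign in every pair was not counted.

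**Figure D1:**
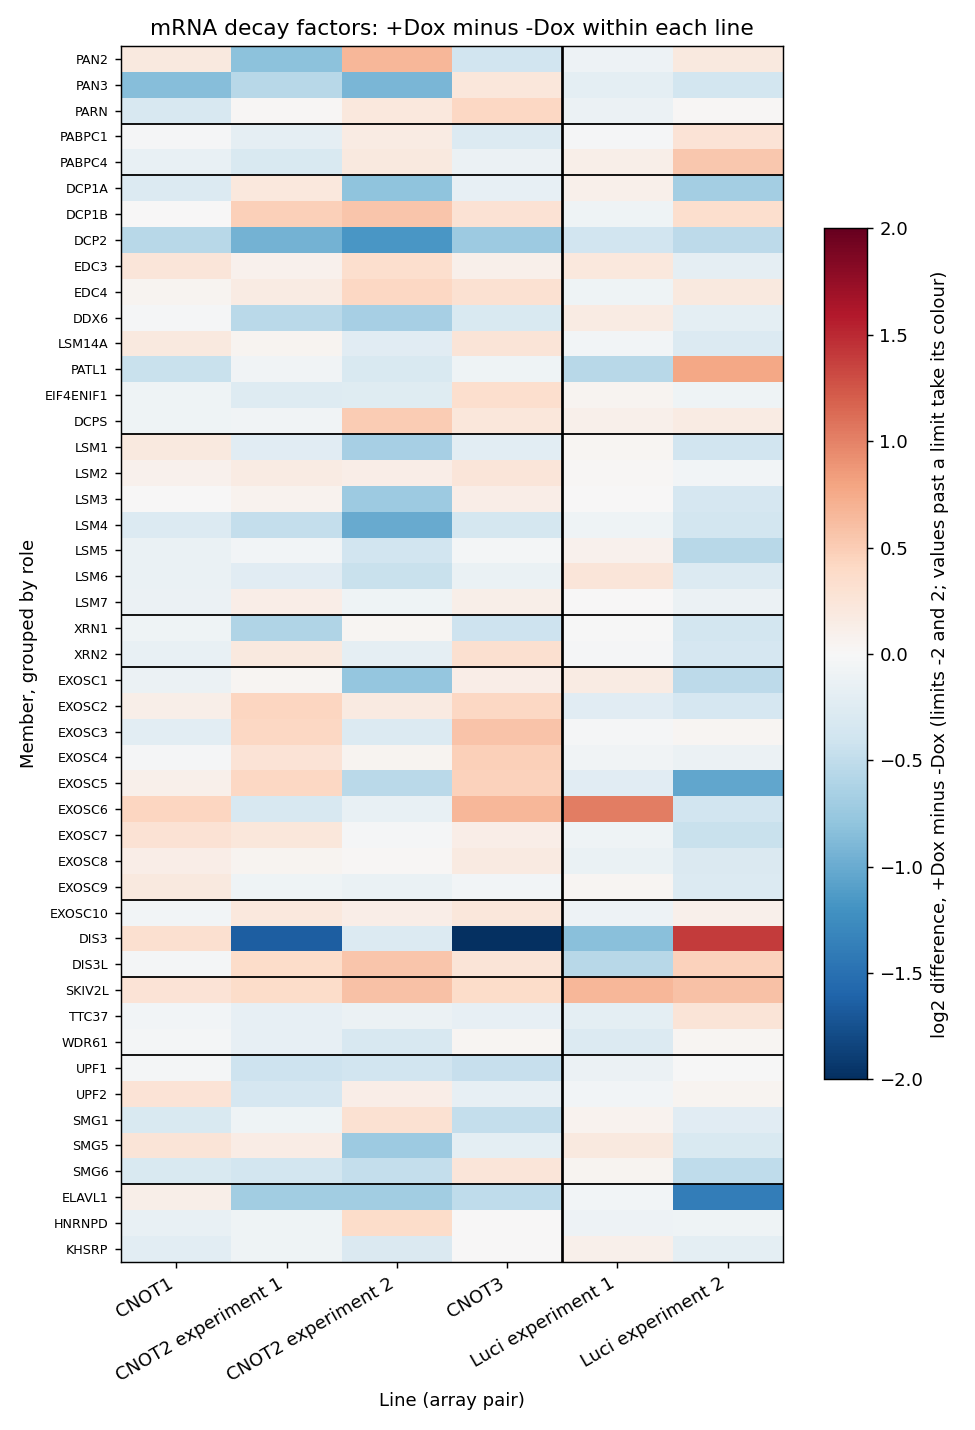
Differences between the array with Dox and the array without, on the log2 scale, for the 47 decay factors (rows, in blocks by role) in the 6 array pairs (columns, the CNOT lines left of the Luci line). DCP2 is lower with Dox in each pair, from -1.16 to -0.39, and SKIV2L higher in each, from 0.27 to 0.66. LSM4 and UPF1 are also lower in each pair.

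Taken pair by pair, 8 of the 47 factors (17%) were lower with Dox in all 4 CNOT pairs, against 11.4% of all genes. They were DCP2, the decapping activators DDX6 and PATL1, the ring subunits LSM4, LSM5 and LSM6, the SKI scaffold TTC37 and the nonsense-mediated decay helicase UPF1. Higher in all 4 were 7 (14.9%), against 13% of all genes, namely DCP1B, EDC3, EDC4, LSM2, EXOSC2, EXOSC8 and SKIV2L. For EXOSC2, LSM2, DDX6 and EDC4 this holds for the brightest spot only. The other spot of LSM2 was at 10.08 with Dox and 10.17 without in the second CNOT2 pair. That of DDX6 was at 5.13 with Dox and 4.69 without in the CNOT3 pair, and that of EDC4 at 3.67 and 4.03 in the CNOT1 pair. On its other spot, with a mean of 8.63, EXOSC2 was lower with Dox in all 4 CNOT pairs. The differences on that spot were -0.37 in the CNOT1 line, -0.36 in the CNOT2 line (mean of both experiments) and -0.22 in the CNOT3 line. Among the factors lower or higher in all 4, DCP2 had the largest differences. For DCP2 they were -0.55 in the CNOT1 line, -0.94 and -1.16 in the CNOT2 line and -0.72 in the CNOT3 line. In the Luci line they were -0.39 and -0.53.

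The difference between the Dox effects of the CNOT2 and Luci lines was tested directly. No factor was called (0% of genes called). DIS3, close to background, was the only factor past 2-fold, at -1.24 (SE 0.82, adjusted p = 1 by limma), where 8.88% of all genes were. For DCP2 the difference between the Dox effects of the CNOT2 and Luci lines was -0.59, with a 95% interval of -2.37 to 1.19, so a Dox effect particular to the CNOT2 line was not detectable for DCP2. With the mean Dox effect of the CNOT1, CNOT2 and CNOT3 lines set against that of the Luci line, no factor was called (0% of genes called). Only DIS3 was past 2-fold, at -1.17, where 7.52% of all genes were.

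The same arrays with Dox were compared with Luci +Dox, which asks for a difference from the induced control line. CNOT2 +Dox had no factor more than 2-fold different (6.58% of all genes) and none called (0% called, none at an unadjusted p under 0.05). DCP2 was the lowest, at 8.09 and 7.08 in CNOT2 +Dox and 8.98 and 8.09 in Luci +Dox, a difference of -0.95 (SE 0.53, adjusted p = 1 by limma), and these arrays overlapped. CNOT2 +Dox lay wholly above Luci +Dox for 3 factors, against 17.1% of all genes, and wholly below for 9, against 15.8%. This comparison shares the CNOT2 +Dox arrays with the one inside the CNOT2 line.

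CNOT1 +Dox against Luci +Dox had 2 factors more than 2-fold different, where 19% of all genes were. ELAVL1 (HuR), which stabilises mRNAs with AU-rich elements, was at 8.33 in CNOT1 +Dox and at 7.54 and 6.26 in Luci +Dox, a difference of 1.43 (SE 0.56, adjusted p = 0.40 by limma). PAN2, the catalytic subunit of the PAN2-PAN3 deadenylase, was at 6.42 in CNOT1 +Dox and at 7.16 and 8.14 in Luci +Dox, a difference of -1.23 (SE 0.71, adjusted p = 0.56 by limma). Without the second Luci +Dox array the differences were 0.79 for ELAVL1 and -0.74 for PAN2, and DIS3, DIS3L and SMG6 were the 3 factors past 2-fold. No factor was called, with 3 at an unadjusted p under 0.05, and 0.233% of all genes were called. With the experiment as a block and an intensity trend, 2 factors were called, DIS3L and EXOSC9, against 11% of all genes.

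CNOT3 +Dox against Luci +Dox had 4 factors more than 2-fold different, where 18.6% of all genes were. EXOSC3, a cap subunit of the exosome, was at 10.26 in CNOT3 +Dox and at 9.12 and 9.06 in Luci +Dox, a difference of 1.17. WDR61, a subunit of the SKI complex, had 10.74 in CNOT3 +Dox and 9.72 and 9.60 in Luci +Dox, a difference of 1.08. PAN2 had 6.17 in CNOT3 +Dox and 7.16 and 8.14 in Luci +Dox (-1.48), and UPF1 had 10.04 in CNOT3 +Dox and 11.02 and 11.56 in Luci +Dox (-1.25). The CNOT3 +Dox array lay outside the range of the Luci +Dox arrays for each of these 4. Given how far apart the Luci +Dox arrays were, this followed from the 2-fold choice and is no further result. Without the second Luci +Dox array 4 factors were past 2-fold, EXOSC3, WDR61, DIS3L and SMG6, and without the first there were 9. None was called by limma (adjusted p from 0.30 to 0.49, 0.273% of genes called, 3 factors at an unadjusted p under 0.05). With the experiment as a block and an intensity trend, EXOSC8, UPF1 and WDR61 were called, against 7.87% of all genes.

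Each line was then compared with the Luci line over both Dox states, with the arrays without Dox given beside those with it. This comparison averages the 2 states. It includes the same +Dox arrays and is no test of the -Dox arrays alone. CNOT3 itself was at 8.96 without Dox in the CNOT3 line, against 9.97 and 10.62 on the Luci -Dox arrays. Its part in the differences of the CNOT3 line without Dox was not tested. WDR61 was at 10.52 with Dox and 10.56 without in the CNOT1 line, and at 10.74 with Dox and 10.70 without in the CNOT3 line. In the CNOT2 line it was at 9.58 and 9.47 with Dox and at 9.75 and 9.79 without, and in the Luci line at 9.72 and 9.60 with Dox and at 9.99 and 9.56 without. All 4 CNOT1 and CNOT3 arrays were above all 8 others, a split chosen after seeing the data and not counted over all genes. Against the Luci line alone, the CNOT1 arrays were wholly above for 19.5% of all genes and the CNOT3 arrays for 16.6%. The Dox differences of WDR61 within the CNOT lines ran from -0.32 to 0.04. The difference from the Luci line was 0.82 for the CNOT1 line (SE 0.23, adjusted p = 0.12 by limma) and 1.00 for the CNOT3 line (SE 0.23, 95% interval 0.45 to 1.56, adjusted p = 0.12). With the experiment as a block and an intensity trend, the limma adjusted p was 0.011 for the CNOT1 line and 0.00669 for the CNOT3 line, with differences of 0.75 and 0.93. On the arrays of the first experiment alone, the differences were 0.69 and 0.87.

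**Figure D2:**
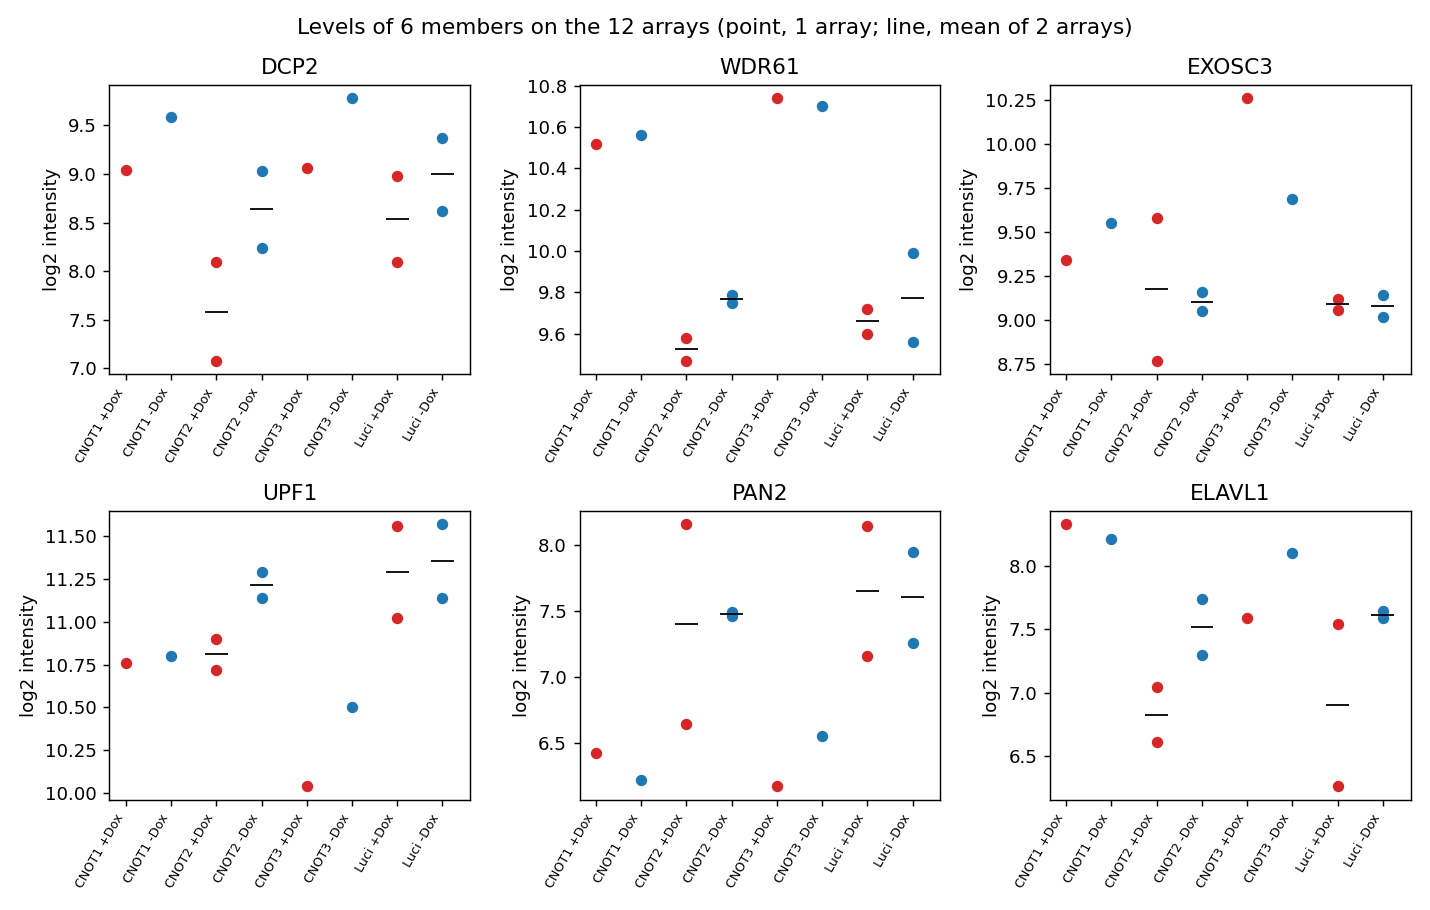
Levels in log2 intensity (vertical axes, which do not start at 0 and differ between panels) of 6 decay factors in the 8 groups, red with Dox and blue without, each point 1 array and each line the mean of 2 arrays. WDR61 lies at 10.52 to 10.74 in the CNOT1 and CNOT3 lines and at 9.47 to 9.99 in the CNOT2 and Luci lines.

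UPF1, the central helicase of nonsense-mediated decay, was at 10.04 with Dox and 10.50 without in the CNOT3 line. In the Luci line it was at 11.02 and 11.56 with Dox and at 11.14 and 11.57 without. Both CNOT3 arrays were below all Luci arrays, and the difference was -1.05 (SE 0.27, adjusted p = 0.14 by limma, and 0.0046 with the block and intensity trend). In the CNOT1 line UPF1 was at 10.76 with Dox and 10.80 without, a difference from the Luci line of -0.54 (SE 0.27).

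PAN2 was at 6.42 with Dox and 6.22 without in the CNOT1 line, and at 6.17 with Dox and 6.55 without in the CNOT3 line, against 7.16 and 8.14 with Dox and 7.26 and 7.95 without in the Luci line. These 4 arrays were below all Luci arrays, with differences of -1.31 for the CNOT1 line and -1.27 for the CNOT3 line (SE 0.50 each, adjusted p 0.21 and 0.29 by limma). PAN2 was higher in the second experiment of the Luci line, and on the first experiment alone the differences were -0.89 and -0.85.

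EXOSC3 had 10 spots, which allowed its difference to be read 10 times on the same arrays. Over the 10 spots the mean was 10.06 on the CNOT3 +Dox array and 9.66 on the CNOT3 -Dox array. It was 9.04 and 8.64 on the Luci +Dox arrays and 9.21 and 8.60 on the Luci -Dox arrays. The standard deviation between spots of an array was 0.11 to 0.23. Each of the 10 spots gave a positive difference between the CNOT3 and Luci lines, from 0.85 to 1.28, with 0.89 (SE 0.28, adjusted p = 0.21 by limma) for the brightest. Without Dox the brightest spot was at 9.69 in the CNOT3 line, against 9.14 and 9.02 in the Luci line. The spots share their arrays and are not replicates. EXOSC2, another cap subunit, was lower in the CNOT3 line on both arrays, at 8.48 with Dox and 8.06 without, against 9.08 and 9.13 with Dox and 9.30 and 9.47 without in the Luci line (-0.98, SE 0.32, adjusted p = 0.22 by limma). The other spot of EXOSC2, with a mean of 8.63 over all arrays, gave -0.53.

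**Figure D3:**
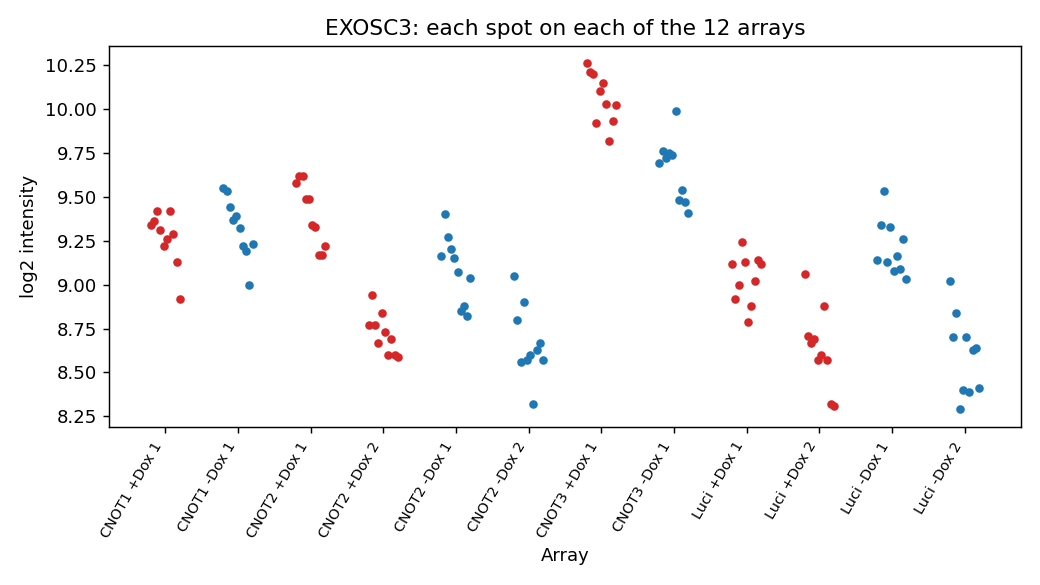
The 10 spots of EXOSC3 on each of the 12 arrays, in log2 intensity (vertical axis, not starting at 0), red with Dox and blue without, each point 1 spot. The CNOT3 +Dox array has the highest spots, with a mean of 10.06 against 9.04 and 8.64 on the Luci +Dox arrays.

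Over all 47 factors, the CNOT1 line had 2 more than 2-fold different from the Luci line, ELAVL1 (1.01) and PAN2, where 15.6% of all genes were. Its arrays were wholly above those of the Luci line for 14 factors, against 19.5% of all genes, and wholly below for 8, against 17.7%. No factor was called by limma (6 at an unadjusted p under 0.05), and 2.26% of all genes were. With the experiment as a block, DIS3L and SMG6 were called, against 10.6% of all genes. With the block and an intensity trend 10 were, namely DDX6, DIS3L, EDC4, EXOSC4, EXOSC9, HNRNPD, LSM4, PARN, SMG6 and WDR61, against 21.4% of all genes. Of the 10021 genes at or above the 50th percentile of mean level, 2785 were. DIS3L, the cytoplasmic nuclease of the exosome, and SMG6, the endonuclease of nonsense-mediated decay, were higher in the second experiment than in the first by 1.17 and 1.68 on average over the 4 groups with both.

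The CNOT3 line had 3 factors more than 2-fold different from the Luci line, WDR61, PAN2 and UPF1, where 12.6% of all genes were. Its arrays were wholly above for 8 factors, against 16.6% of all genes, and wholly below for 4, against 15.7%. No factor was called by limma (5 at an unadjusted p under 0.05), and 1.18% of all genes were. With the experiment as a block none was, against 3.86% of all genes, and with the block and an intensity trend 8 were, against 12.6%, namely EXOSC2, EXOSC3, EXOSC8, HNRNPD, LSM4, SMG1, UPF1 and WDR61. Of the 10021 genes at or above the 50th percentile of mean level, 1611 were called with the block and trend. SMG1 shares sequence with near-identical pseudogene copies, so its signal is uncertain. Its brightest spot gave a difference of 0.60 between the CNOT3 and Luci lines. The spots next in level gave -0.14, 0.115 and 0.08, and the dimmer ones 0.065 to 0.745.

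The CNOT2 line, with 4 arrays against 4, had no factor more than 2-fold different from the Luci line, where 2.41% of all genes were. Its arrays were wholly above for 0 factors, against 1.85% of all genes, and wholly below for 1, the decapping enhancer EDC3, against 1.82%. None was called (0% of genes called, no factor at an unadjusted p under 0.05). The median difference of the 47 was -0.06 in the CNOT2 line, against 0.20 in the CNOT1 line and 0.12 in the CNOT3 line, and the medians of all genes lay between -0.0025 and 0.0275.

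**Figure D4:**
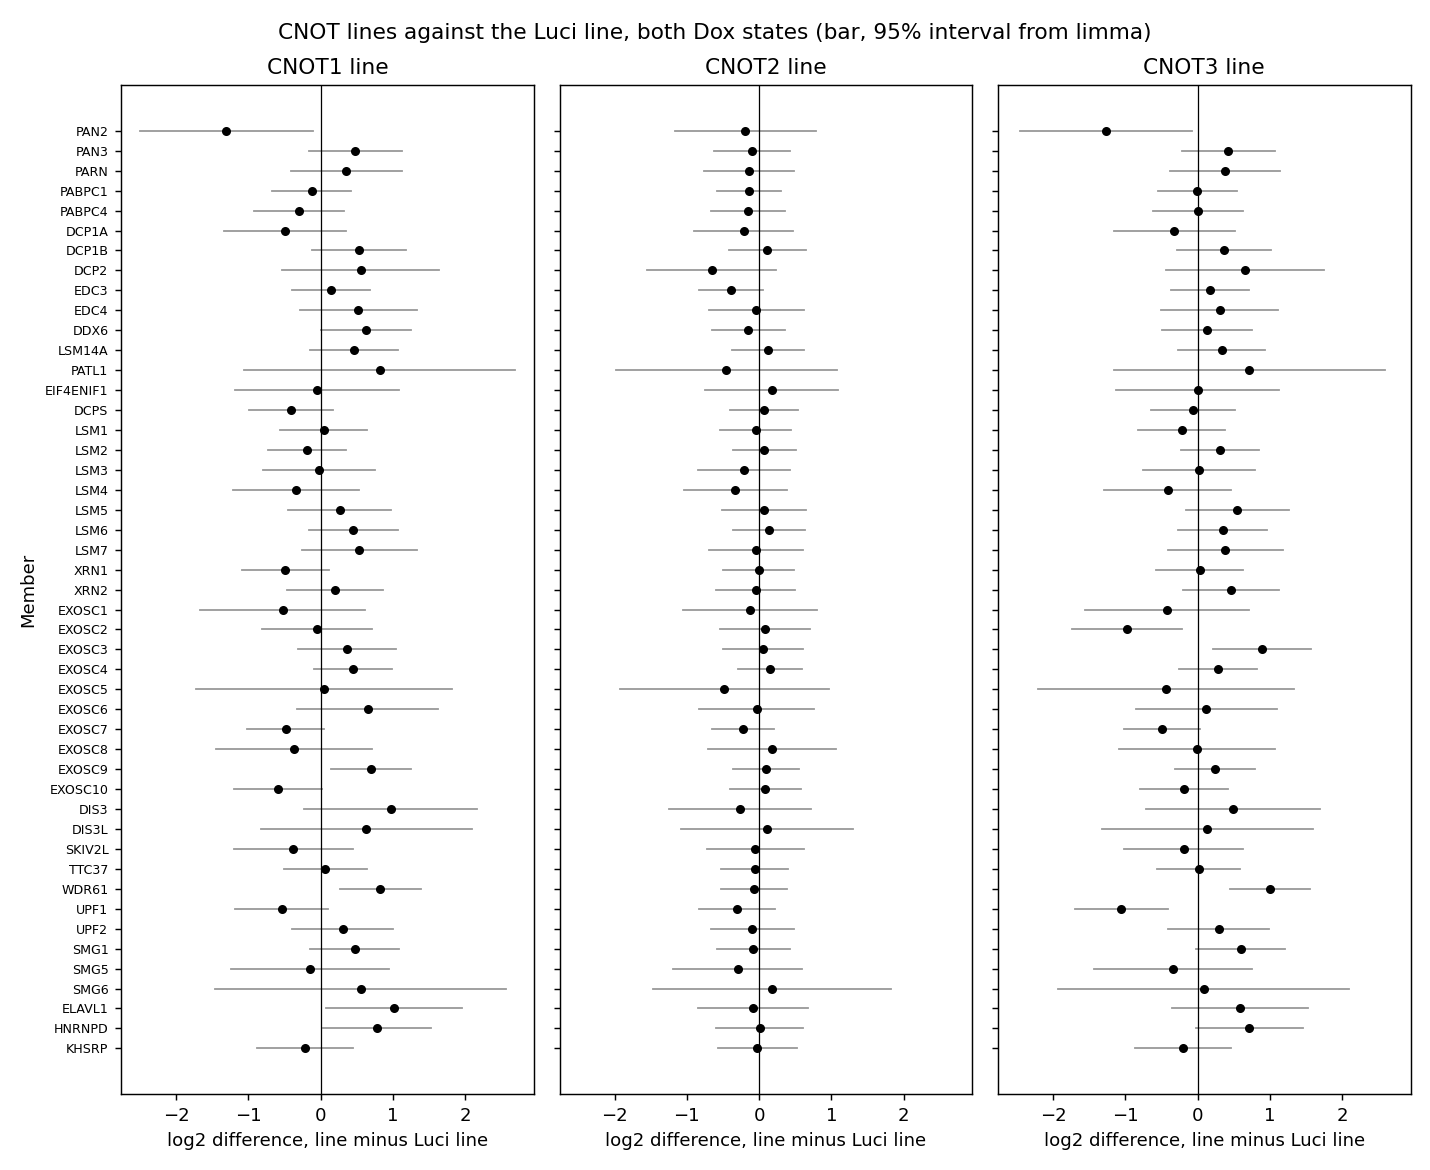
Difference between each CNOT line and the Luci line over both Dox states, in log2 units (horizontal axis), for the 47 decay factors (rows). Points are limma estimates and bars their 95% intervals, not adjusted for the number of genes. The median absolute difference is 0.12 in the CNOT2 line, against 0.46 and 0.33 in the CNOT1 and CNOT3 lines, and WDR61 is at 0.82 and 1.00 in the CNOT1 and CNOT3 lines.

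Other genes of the same pathways were counted from a list of 76, of which 68 were tested. In the 3 comparisons within a CNOT line and the 1 within the Luci line, none was called by limma, with or without the block and intensity trend. Without the block, 2 were called in the CNOT1 line against the Luci line, where 2.26% of all genes were, and none in the CNOT2 and CNOT3 lines against the Luci line. With the block and trend, 17 were called in the CNOT1 line and 9 in the CNOT3 line, where 21.4% and 12.6% of all genes were. DIS3L2, an exonuclease that digests uridylated RNAs from the 3′ end, was at 3.33 with Dox and 3.99 without in the CNOT1 line, against 5.87 and 5.40 with Dox and 5.71 and 5.73 without in the Luci line (-2.02, SE 0.27, adjusted p = 0.023 by limma). SYNCRIP, an RNA-binding protein, was at 11.19 with Dox and 11.29 without in the CNOT1 line, against 9.17 and 9.15 with Dox and 9.49 and 9.62 without in the Luci line (1.88, SE 0.25, adjusted p = 0.023 by limma). The DIS3L2 values of the CNOT1 line are close to background, near the median of all spots at 3.34, so the size of its difference is uncertain. In the CNOT3 line SYNCRIP was at 10.65 with Dox and 10.86 without, a difference from the Luci line of 1.40. Of 26 RNAs known to carry AU-rich elements or to be sensitive to nonsense-mediated decay, 25 were tested and none was called by limma without the block in any comparison. With the block and an intensity trend, 13 were called in the CNOT1 line and 9 in the CNOT3 line against the Luci line, where 21.4% and 12.6% of all genes were. With it, 7 were called in CNOT1 +Dox and 5 in CNOT3 +Dox against Luci +Dox, where 11% and 7.87% of all genes were. Of the 11 RNAs sensitive to nonsense-mediated decay, 10 were lower in the CNOT1 line than in the Luci line, with a median of -0.60. In the CNOT3 line 9 were lower, with a median of -0.69. Of the 14 tested RNAs with AU-rich elements, 8 were lower in the CNOT1 line and 9 in the CNOT3 line, with medians of -0.46 and -0.23. Of all 15033 genes, 7284 and 7234 were lower.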

How the data were processed

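RNA of the 12 samples was hybridised to Agilent arrays. The authors corrected the background with normexp, quantile-normalised the arrays and deposited log2 intensities (the base was inferred from their range, 1.56 to 15.98). The deposited values were used as they are. Spots were named through the platform annotation, the brightest spot per gene was kept, and genes with a mean under the 25th percentile were left out, which left 15031 genes on 8 arrays (CNOT2 and Luci lines) and 15033 on all 12. Group means were compared with limma 3.58.1 in R 4.3.3, with Benjamini-Hochberg adjustment over all genes and a threshold of 0.05. Same-numbered arrays deviated together (correlations 0.36 to 0.61 over 6 pairs of groups), so fits with the experiment as a block were also run. The 8-array fit without block or trend was run on simulated data with independent noise and no shift between experiments. The 12-array fits and those with the block or trend were not simulated. Members and lists were chosen with earlier results of these data known. Genes named with values were those past the threshold, more than 2-fold different or with the 3 largest differences in each direction. The number of arrays limits the precision. Alternatives covered the filter, spot averaging, cyclic loess, the block and trend, the doubtful Luci label, each array left out and single experiments, of which those within the CNOT2 and Luci comparisons were chosen after seeing the data.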

Additional observations from a re-analysis of the deposited data

Results flagged for a closer look

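Each factor was examined in the 2 lines with 4 arrays (CNOT2 and Luci), 94 combinations in all. In 5 of them 1 array's distance from the nearest other, as a share of the whole range, was above Dixon's critical value for 4 samples. Chance alone passes that value in about 1 in 20 groups of 4 like samples, close to the 5 of 94 seen. The 4 arrays of a line mix Dox states and experiments, so the rate that applies here is not known. LSM3, a subunit of the LSM1-7 ring, was at 11.74 on the second CNOT2 +Dox array, against 12.45 to 12.52 on the other CNOT2 arrays. DCP1A, the decapping cofactor, was at 12.14 on the second Luci -Dox array, which is also the array with conflicting Dox labels, against 11.34 to 11.46 on the other Luci arrays. The second Luci +Dox array was low for 3 factors. LSM1 was at 10.42 there against 10.78 to 10.82, the 5′-3′ exonuclease XRN1 at 6.73 against 7.09 to 7.14, and ELAVL1 at 6.26 against 7.54 to 7.64. ELAVL1's difference between CNOT1 +Dox and Luci +Dox, 1.43, was 0.79 on the arrays of the first experiment. No factor passed the adjusted threshold in the 2 tests of a difference between Dox effects, the CNOT2 line and the mean of the 3 CNOT lines against the Luci line.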

How the results depend on the processing

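The count of decay factors called was 0 in all 12 comparisons and stayed at 0 without the filter on dim genes, with the 50th percentile filter, with the mean of all spots, with cyclic loess, with the intensity trend alone, with the doubtful Luci array taken as Luci +Dox and without any single array of the groups with 2. It moved with the replicate block, to 2 for the CNOT1 line against the Luci line (10.6% of all genes), and with the replicate block and intensity trend, to 10 for the CNOT1 line, 8 for the CNOT3 line, 2 for CNOT1 +Dox against Luci +Dox and 3 for CNOT3 +Dox against Luci +Dox. On the first experiment only it was 4 for the CNOT1 line (DIS3L, EDC4, SMG6 and WDR61), where 16.7% of all genes were called, and 1 for the CNOT3 line (WDR61), where 5% were. The block changed no other count of factors. Among all genes, the block alone called 1593 for the CNOT1 line and 581 for the CNOT3 line, and the block with the trend called 3215 instead of 340 for the CNOT1 line and 1890 instead of 178 for the CNOT3 line. The cause was not tested. Over the alternatives, the count of factors past 2-fold ran from 1 to 3 for CNOT2 +Dox against CNOT2 -Dox, 0 to 6 for the CNOT2 minus Luci Dox effect, 2 to 4 for CNOT1 +Dox and 4 to 9 for CNOT3 +Dox against Luci +Dox, 1 to 4 for the CNOT1 line and 0 to 5 for the CNOT3 line.

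Of 1239 values of named factors under an alternative, 1207 kept their direction and 32 reversed. With the second Luci -Dox array taken as Luci +Dox, the Luci Dox difference became 0.73 for EXOSC5, -0.12 for PABPC4 and -0.083 for DCPS. The CNOT2 minus Luci Dox effect of EXOSC5 became -0.79, and the mean CNOT minus Luci Dox effect became 0.013 for PABPC4, 1.22 for PATL1 and -0.56 for EXOSC5. On the first experiment that last effect was 0.36 for PATL1. With the mean of all spots, EIF4ENIF1 in the CNOT2 line was at -0.0825. When single arrays were left out, the CNOT2 +Dox minus -Dox difference of DIS3L ran from -0.14 to 1.07, and against Luci +Dox that of DIS3L from -0.50 to 1.23 and that of PATL1 from -1.38 to 0.18. The Luci Dox difference of EXOSC5 ran from -1.49 to 0.23. The CNOT2 minus Luci Dox effect ran from -0.46 to 1.59 for EXOSC5 and from -0.35 to 1.37 for DIS3L, and the mean CNOT minus Luci Dox effect from -1.49 to 0.80 for PATL1 and from -0.065 to 1.66 for EXOSC5. In the CNOT2 line against the Luci line, EXOSC5 ran from -0.995 to 0.03, PATL1 from -1.03 to 0.12, EXOSC8 from -0.0625 to 0.42 and EIF4ENIF1 from -0.095 to 0.45. WDR61 stayed between 0.72 and 0.93 in the CNOT1 line and between 0.90 and 1.11 in the CNOT3 line. DIS3 did not pass the 50th percentile filter and has no value there. With 1 or 2 arrays a group, differences of the size seen for DCP2 lie inside their intervals, and values of DIS3 are limited by a signal close to background.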
